A study of Mus musculus with 3 samples.

Results

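The family of miR-15, miR-16 and miR-195 is a group of microRNAs (miRNAs) that share a seed, the stretch near the 5′ end through which a miRNA pairs with its target mRNAs. Its 5 members on the panel were miR-15a (MIMAT0000526), miR-15b (MIMAT0000124), miR-16 (MIMAT0000527), miR-195 (MIMAT0000225) and miR-322 (MIMAT0000548). They were chosen by miRBase identifier from 602 miRNA rows, with earlier results of these data known, and all 5 had a row in the table with a value for each of the 3 samples. Members of the family are known to repress genes that drive the cell cycle, among them D-type and E-type cyclins, as well as the survival factor Bcl2. In mammals the Müller glia (MG), a type of retinal glial cell, seldom divide, and injury turns them reactive.

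The study sorted adult MG by the tdTomato reporter, which was switched on with tamoxifen through Rlbp1-CreER, a Cre driver of MG, in mice of 2 to 3 months. The wild type sample (Rlbp1-CreER:tdTomato) was pooled from 40 undamaged retinas. The light damage (LD) sample was pooled from 44 retinas of the same reporter, crossed to the albino Swiss Webster strain with the RPE65 450Leu variant and taken 7 days after 8 h at 10000 lux. The Dicer-cKO sample (Rlbp1-CreER:tdTomato:Dicerf/f) was pooled from 26 retinas 1 month after Dicer, whose product cuts miRNA precursors, had been deleted in these cells. The strain of the mice and the series of measurement cannot be told apart from LD, and fewer cells that hold a miRNA cannot be told apart from fewer copies per cell. Mature miRNAs were counted with NanoString probes, without amplification, and the normalized counts of molecules set the geometric mean of 4 housekeeping mRNAs (Actb, Gapdh, Rpl19 and B2m) equal. Before this scaling the miRNA counts summed to 678722 in wild type, 230232 after LD and 44258 in Dicer-cKO MG. With 1 sample per condition there was no replicate check and no test. The intervals below are exact 95% intervals that cover counting error only, and "beyond counting error" means that such an interval excludes 1. The other rows carry identifiers without names, so the MG identity of the samples was not checked against marker miRNAs.

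The mature sequences, from RefSeq (GRCm38.p6), are shown with the seed (bases 2 to 8) in capitals, because the family is defined by it and the members differ outside it.
miR-15a: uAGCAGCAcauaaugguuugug
miR-15b: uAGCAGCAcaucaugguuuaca
miR-16: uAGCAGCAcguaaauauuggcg
miR-195: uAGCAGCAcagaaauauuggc
miR-322: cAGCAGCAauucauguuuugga
All 5 held the same seed, which 10 of the 1679 mature mouse miRNAs in the RefSeq table carry. The other 5 are miR-195b, miR-497a-5p, miR-6342, miR-6353 and miR-6419. Whether the panel measures them was not determined, because the sources used here did not pair its other identifiers with names. Compared position by position from the 5′ end, miR-16 and miR-195 differed at 2 of 21 positions and miR-15a and miR-15b at 4 of 22. The most unlike pairs, miR-16 with miR-322 and miR-195 with miR-322, differed at 10 positions. How well the probes separate miR-16 from miR-195 was not tested.

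The members come from several loci. The hairpin of miR-15a lies at chr14:61632027-61632110 on the minus strand, inside Dleu2, a long noncoding RNA, and 54 bases from the hairpin of Mir16-1. That of miR-15b lies at chr3:69009772-69009835 on the plus strand, inside Smc4, which encodes a condensin subunit, and 66 bases from the hairpin of Mir16-2. Both miR-16 hairpins give the identical mature miRNA, shown in capitals within the precursors that Dicer cuts, so that the miR-16 count is a sum over both loci while miR-15a and miR-15b each report on 1 of them.
Mir16-1 (chr14:61631880-61631972, minus strand): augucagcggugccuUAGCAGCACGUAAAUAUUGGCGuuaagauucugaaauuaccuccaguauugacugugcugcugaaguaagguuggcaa
Mir16-2 (chr3:69009902-69009996, plus strand): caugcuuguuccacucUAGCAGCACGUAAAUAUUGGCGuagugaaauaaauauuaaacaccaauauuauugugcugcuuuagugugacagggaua
The hairpin of miR-195 (chr11:70235042-70235135, plus strand) lies 241 bases from that of Mir497. The hairpin of miR-322 (chrX:53054255-53054349, minus strand) lies within the noncoding gene C430049B03Rik, 200 bases from Mir503 and 901 from Mir351.

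miR-16 was by far the most abundant member in every sample, followed by miR-15a and miR-15b, while miR-195 and miR-322 were scarce. miR-16, the member best known from the tumor suppressor locus it shares with miR-15a, had 7260 normalized counts in wild type, 2732 after LD and 3358 in Dicer-cKO MG. It ranked 15, 19 and 15, respectively, among the 602 miRNAs. In the authors' scaling it was thus highest in wild type and lowest after LD, although 2 of 11 scalings put Dicer-cKO MG above wild type and 4 put LD above Dicer-cKO MG. miR-15b had 934 normalized counts in wild type, 290 after LD and 250 in Dicer-cKO MG. In this scaling it was high in wild type alone, and its levels in the other samples lay within counting error of each other. miR-15a had 504 normalized counts in wild type, 640 after LD and 193 in Dicer-cKO MG. It was the only member whose count was highest after LD in the authors' scaling, an order that 3 of 11 scalings did not give, as described below.

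The scarce members approached the background. miR-195, which is known to restrain cell division in the heart, had 66 normalized counts in wild type, 9 after LD and 16 in Dicer-cKO MG. These correspond to 57.1, 4.42 and 3.62 counts before scaling. miR-322, the mouse counterpart of human miR-424, had 100 normalized counts in wild type, 27 after LD and 96 in Dicer-cKO MG, or 86.6, 13.3 and 21.7 counts before scaling. For comparison, the highest of the 8 lowest ERCC control rows, as many rows as there are negative controls, had 23.38 counts in wild type, 31.5 after LD and 38.62 in Dicer-cKO MG, all unscaled. Both members exceeded it in wild type MG and neither did in the other samples. In normalized counts this row stood at 27.0, 64.1 and 170.7, respectively, so that a member at its wild type level of 66 or 100 would also have been under it in Dicer-cKO MG. miR-15a (43.7 counts before scaling) and miR-15b (56.6) were not far above it in Dicer-cKO MG.

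**Figure D1:**
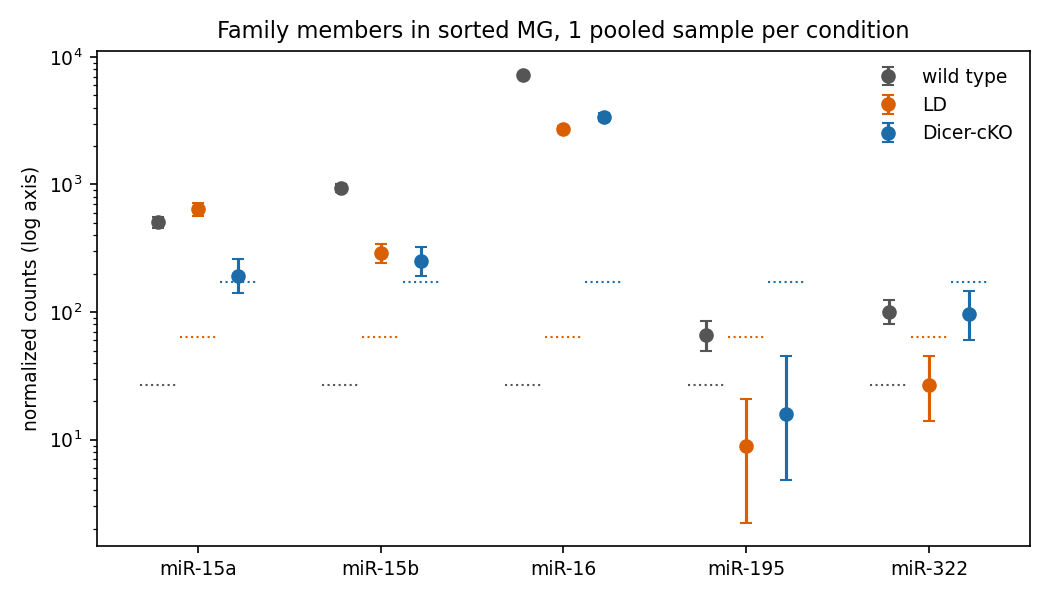
Normalized counts (log axis) of the 5 members in wild type, LD and Dicer-cKO MG, 1 pooled sample each. Bars are exact 95% Poisson intervals (counting error only) and dotted lines mark the highest of the 8 lowest ERCC rows, multiplied by the sample's factor. miR-16 lies highest throughout, and miR-195 and miR-322 lie below the dotted line after LD and in the Dicer-cKO sample.

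The order of the members within a sample can be read only as an order of counts, since probes can differ in efficiency. In wild type MG it was miR-16, miR-15b, miR-15a, miR-322 and miR-195, and the last 2 differed beyond counting error, with 0.66 count of miR-195 per count of miR-322 (0.461 to 0.925). After LD miR-15a stood above miR-15b, whereas in Dicer-cKO MG miR-15b had the higher count, within counting error. miR-16 made up 81.9% of the summed family count in wild type (95% Clopper-Pearson interval 81.0 to 82.8), 73.9% after LD (71.8 to 75.9) and 85.8% in Dicer-cKO MG (83.4 to 88.1). The share of miR-15a was 5.69% (5.17 to 6.22), 17.3% (15.6 to 19.1) and 4.93% (3.64 to 6.62), respectively. For miR-15b it was 10.5% (9.86 to 11.2), 7.84% (6.62 to 9.15) and 6.39% (4.91 to 8.26). Within the family, the weight of miR-15a was therefore highest after LD and that of miR-15b in wild type MG.

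To describe the family after light damage, the LD sample was set against wild type. In the authors' scaling 4 of the 5 members were lower after LD beyond counting error and miR-15a was higher, but the LD counts of miR-195 and miR-322 were under the highest low ERCC row, so no fold is given for these 2. Of the 209 miRNAs above the lowest value in both samples, 56.5% were lower by the same rule and 18.2% were higher in this scaling. The ratio of LD to wild type was 0.310 (0.257 to 0.370) for miR-15b and 0.376 (0.354 to 0.399) for miR-16. miR-15a had a ratio of 1.27 (1.09 to 1.47). The summed family fell from 8864 to 3698 normalized counts, a ratio of 0.417 (0.396 to 0.439), which 1 of 11 scalings put above 1, at 1.07. Its share of all miRNA counts was 1.13% in wild type and 0.789% after LD. The direction of this share rests on the row most abundant after LD. At the same total miRNA count the ratio of the sum was 0.698 (0.663 to 0.735), and without that row in the total it was 1.07 (1.02 to 1.13).

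The scaling multiplies every miRNA of a sample by 1 factor, and 11 scalings were compared. The ratio of LD to wild type was below 1 in all 11 for miR-15b (0.156 to 0.798) and miR-16 (0.189 to 0.967). It was beyond counting error in all 11 for miR-15b and in 10 for miR-16. Over the same scalings, 19.6% to 76.6% of the 209 miRNAs were lower after LD by this rule. The ratio of miR-15a ranged from 0.636 to 3.26. It was higher beyond counting error in 7 scalings and lower in 3, namely Rpl19 as the only reference, no scaling and the 6 highest ERCC rows as reference. In those 7 scalings 17.7% to 46.9% of the 209 miRNAs were higher by this rule, and in those 3 scalings 72.2% to 76.6% were lower. Over all 11 scalings the share higher ranged from 9.09% to 46.9%. The direction of miR-15a against wild type thus depended on the reference, and that of miR-15b and miR-16 did not among the scalings tried.

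Set against wild type, the Dicer-cKO sample had lower counts of miR-15a, miR-15b and miR-16 beyond counting error in the authors' scaling. By this rule 39.3% of 224 miRNAs were lower and 21.9% higher. The ratio was 0.268 (0.202 to 0.353) for miR-15b, 0.383 (0.277 to 0.527) for miR-15a and 0.463 (0.429 to 0.499) for miR-16, and those of miR-15b and miR-15a lay within counting error of each other. The Dicer-cKO counts of miR-195 and miR-322 lay under the highest low ERCC row, which in normalized counts was above their wild type levels too, so no fold is given. By the same rule miR-195 was called lower, a call that was lost with 10 counts added back and in 4 of the 11 scalings. miR-322 was within counting error, but called higher in 4 scalings and lower in 2. The summed family had 3913 normalized counts, a ratio of 0.441 (0.411 to 0.473), but it made up 2.0% of all miRNA counts in this sample. miR-15a, miR-15b and miR-16 were below wild type in 9 of the 11 scalings, beyond counting error in 7 for miR-15a, 9 for miR-15b and 8 for miR-16. With the geometric mean of the 100 highest miRNAs miR-15a and miR-16 were within counting error, and with the median of ratios miR-15a was. With the same total miRNA count, with or without the row most abundant after LD, all 3 were above wild type, miR-15a and miR-16 beyond counting error. So were most of the 224 miRNAs: 63.4% were higher by this rule with the same total and 63.8% with that total without the row. Over the 11 scalings the share of all miRNAs lower by this rule ranged from 7.14% to 83.5%, and the share higher from 2.68% to 63.8%.

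**Figure D2:**
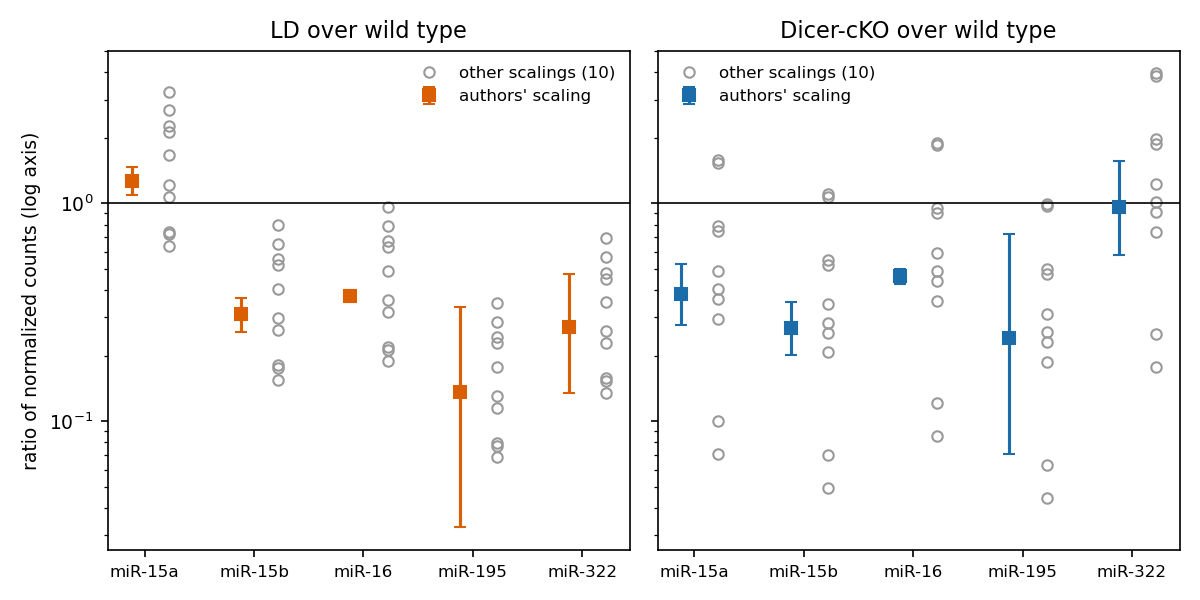
Ratio of normalized counts (log axis) of each member for LD over wild type and Dicer-cKO over wild type. Squares with bars are the authors' scaling with exact 95% intervals of counting error, and open circles are the 10 other scalings. After LD all circles of miR-15b and miR-16 lie below 1 and those of miR-15a on both sides. The points of miR-195 and miR-322 rest on LD and Dicer-cKO counts under the highest low ERCC row and are not measured folds.

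The abundant members were also read against the fold by which other miRNAs moved. Of 104 miRNAs that averaged at least 100 normalized counts over the 3 samples, 39.4% were at or past 2-fold lower after LD and 60.6% in Dicer-cKO MG. miR-15a, miR-15b and miR-16 reached that mean and miR-195 and miR-322 did not. After LD miR-15b and miR-16 were past 2-fold lower, and in Dicer-cKO MG all 3 were. These calls depended on the scaling, the fold and the minimum mean. At a minimum mean of 30, 47.8% of 178 miRNAs were past 2-fold lower after LD, against 54.5% for Dicer-cKO MG. The members among them were then also miR-195 in both comparisons and miR-322 after LD, from counts under the highest low ERCC row. At a minimum of 300 the shares were 41.8% and 67.2% of 67, with the same members as at 100. With the same total miRNA count 140 miRNAs reached a mean of 100, miR-322 among them. Of these, 25% were past 2-fold lower after LD, miR-322 alone of the 4 members, and 27.1% higher, among them miR-15a. In Dicer-cKO MG 7.14% were lower, with no member, and 50.7% higher, among them miR-322. Both calls of miR-322 rest on counts under the highest low ERCC row. At 4-fold in the authors' scaling 15.4% of the 104 were lower after LD and 29.8% in Dicer-cKO MG, in each case with none of the 3 members. The median log2 change of the 104 (pseudocount 1) was -0.70 after LD and -1.36 in Dicer-cKO MG, and it moved with the scaling, from -1.69 to 0.65 and from -3.78 to 0.68. Relative to this median in the authors' scaling, the log2 change after LD was 1.05 for miR-15a, -0.98 for miR-15b and -0.71 for miR-16. In Dicer-cKO MG it was -0.02 for miR-15a, -0.54 for miR-15b and 0.25 for miR-16. miR-15a thus lay at the middle of the panel after Dicer deletion and above it after LD.

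**Figure D3:**
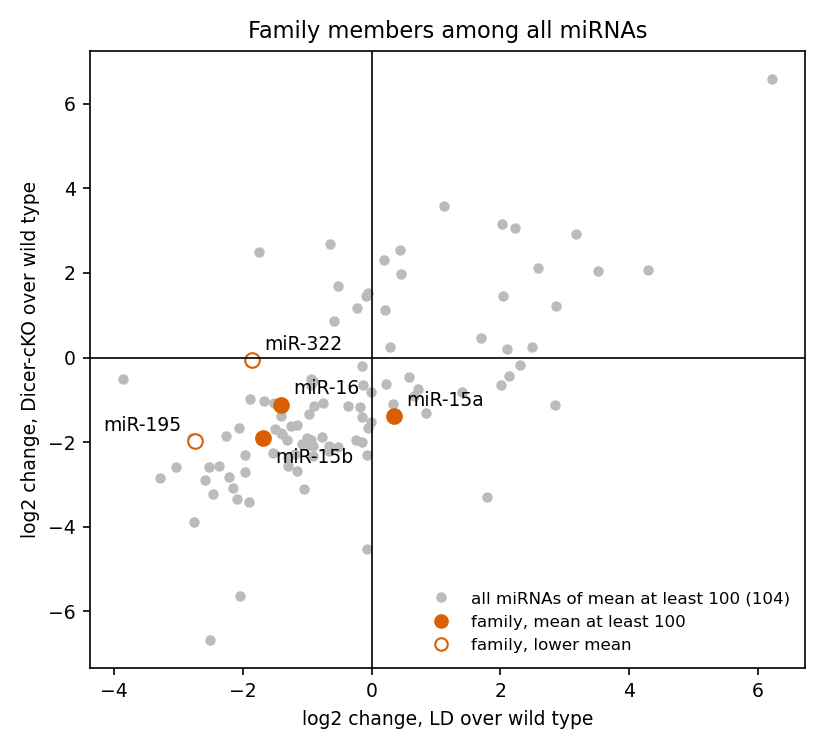
Log2 change after LD (horizontal axis) against log2 change in Dicer-cKO MG (vertical axis), both over the same wild type sample, in the authors' scaling with a pseudocount of 1. Grey points are 104 miRNAs that averaged at least 100 counts, filled points the family members among them and open points miR-195 and miR-322. miR-15a is the only member to the right of 0, which another scaling can change.

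Ratios between members of 1 sample do not depend on the scaling, since the factor cancels, and after LD they separated miR-15a from miR-15b and miR-16. There was 0.540 count of miR-15a per count of miR-15b in wild type (95% interval 0.479 to 0.606), 2.21 after LD (1.81 to 2.72) and 0.772 in Dicer-cKO MG (0.509 to 1.16). The ratio after LD was 4.09 times that in wild type (3.24 to 5.20) and 2.86 times that in Dicer-cKO MG (1.80 to 4.56). Between Dicer-cKO and wild type MG it differed by a factor of 1.43, within counting error (0.927 to 2.20). Against miR-16, miR-15a had 0.0694 count per count of miR-16 in wild type (0.0628 to 0.0764), 0.234 after LD (0.206 to 0.265) and 0.0575 in Dicer-cKO MG (0.0417 to 0.0785). Relative to wild type this was a factor of 3.37 after LD (2.87 to 3.96) and of 0.828 in Dicer-cKO MG (0.592 to 1.15), where 10 more counts of background subtracted gave 0.661 (0.453 to 0.957), beyond counting error. These intervals hold no spread between animals or pools, which 1 sample per condition cannot show.

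miR-15b lost ground to miR-16 in Dicer-cKO MG. miR-15b had 0.129 count per count of miR-16 in wild type (0.119 to 0.138), 0.106 after LD (0.0884 to 0.126) and 0.0744 in Dicer-cKO MG (0.0563 to 0.0982). Relative to wild type the ratio changed by a factor of 0.825 after LD (0.676 to 0.994) and 0.579 in Dicer-cKO MG (0.433 to 0.772). The smaller of these shifts was within counting error when 10 counts of background were added back (0.867, 0.715 to 1.04). The larger was then 0.665 (0.508 to 0.869), and 0.488 (0.355 to 0.668) with 10 more counts subtracted. Larger backgrounds were not tried. The 56.6 counts of miR-15b in Dicer-cKO MG before scaling were not far above the highest low ERCC row, at 38.62. In wild type MG miR-16 had 110.0 times the count of miR-195 (85.0 to 146), and for the other samples, with fewer than 5 counts of miR-195, no ratio is given.

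**Figure D4:**
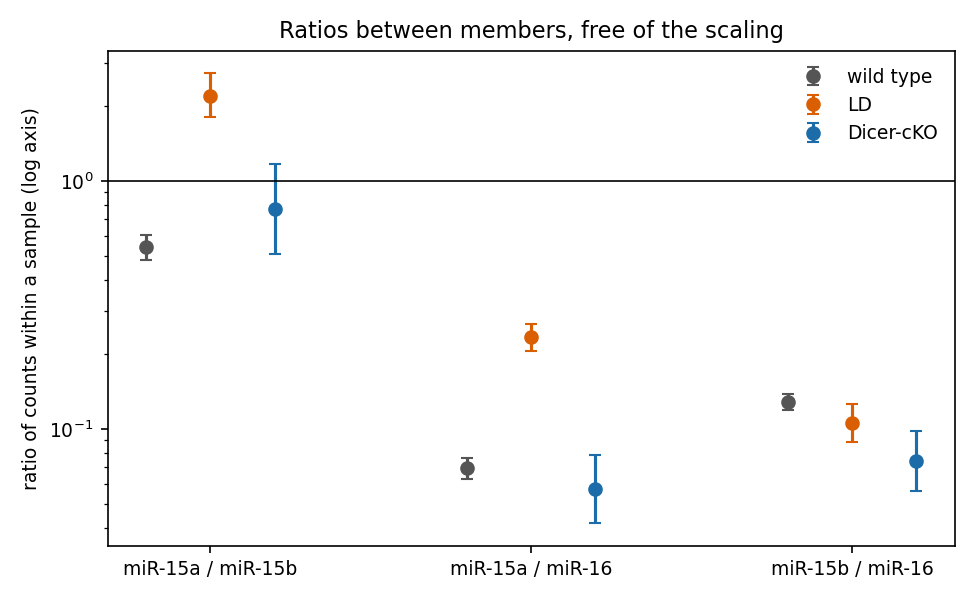
Ratio of counts (log axis) between miR-15a, miR-15b and miR-16 within each sample, with exact 95% intervals of counting error. miR-15a exceeds miR-15b in the LD sample alone, there beyond counting error, and both ratios with miR-15a on top are highest there.

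Light damage and Dicer deletion were finally compared with each other. The summed family differed by less than counting error in the authors' scaling, with 0.945 times the Dicer-cKO level after LD (0.872 to 1.03), but beyond it in the 10 other scalings, lower in 6 and higher in 4 (0.395 to 2.57). The members behind this sum did not move together. miR-15a was 3.32-fold higher after LD than in Dicer-cKO MG (2.39 to 4.61), and it was above 1 in all 11 scalings, from 1.38 to 9.02, in 10 of them beyond counting error. For miR-15b the ratio was 1.16 (0.838 to 1.59), and over the 11 scalings it ranged from 0.484 to 3.15, lower beyond counting error in 3 and higher in 4. miR-322 had 27 normalized counts after LD and 96 in Dicer-cKO MG, both from counts under the highest low ERCC row, so no fold is given. miR-195, with 9 and 16 normalized counts, lay under that row in both samples too and is given no fold. miR-16 was lower after LD, with a ratio of 0.814 (0.743 to 0.890), but above 1 in 4 of the 11 scalings. In this comparison 30.3% of 175 miRNAs were lower after LD beyond counting error in the authors' scaling, as miR-16 was, and 34.3% were higher, as miR-15a was. Over the 11 scalings the share lower ranged from 6.29% to 54.9% and the share higher from 10.9% to 63.4%.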

How the data were processed

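The data were 1 table of 626 rows for 3 pooled samples. The deposited signal consists of molecule counts that the authors had corrected for background and normalized with nSolver 4.0 against 4 housekeeping mRNAs, 8 negative controls and 6 positive controls, from 200 ng of total RNA per sample. No aligner or genome was involved. The sources used here do not say which ERCC row served as which control. Tamoxifen (75 mg/kg) was given on 4 days per the paper's methods and on 3 per the labels.

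The table holds miRBase identifiers, and names were available for the 5 members only, so the marker miRNAs, other seed families and cluster partners that had been listed for comparison were not analysed. The rule for named miRNAs therefore comprised the members, the housekeeping mRNAs and the nearest rows in the plane of both log2 changes to wild type. The members and lists were chosen with earlier results of these data known. Sequences and coordinates of all 5 members came from RefSeq (GRCm38.p6). The hairpin sequence of Mir15a was not used here.

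The factor of each sample (1.15, 2.04 and 4.42 for wild type, LD and Dicer-cKO) was recovered from the rows kept to 2 decimals, and division by it gave the counts before scaling. All miRNAs above the lowest value (342, 246 and 243) were recovered as whole counts, offset by the same decimals within a sample, to within 0.51 normalized counts. Ratios carry exact 95% intervals (Clopper-Pearson, on the first count's share in both), and changes of ratios between samples exact conditional odds ratio intervals. Both use counts after subtraction of a background of unknown size. The recovery of the factor and the interval of a ratio were tested on simulated data. The intervals of shares and of changes of ratios were not. Alternatives comprised 10 other scalings, 10 counts of background added or subtracted, other folds (1.5 and 4) and other minimum means (30 and 300). The software was scipy 1.17.1 with pandas 2.3.3 and numpy 2.4.6 under Python 3.11.15, and matplotlib 3.10.9 for plots.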

Additional observations from a re-analysis of the deposited data

How the results depend on the processing

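No paired analysis was possible because there was 1 sample per condition, and no replicate could be left out. All alternatives were planned, and for each value below the cause was not tested beyond the factor that a scaling applies to a whole sample. The following counts are of members lower beyond counting error, and they include miR-195 and miR-322, whose LD and Dicer-cKO counts were under the highest low ERCC row. The share of all miRNAs lower by the same rule follows in parentheses, and it moved with the scaling too. Against wild type 4 were lower after LD (56.5%), 2 with the same total miRNA count without the row most abundant after LD (19.6%) and 5 with Rpl19 alone (72.2%), without scaling (73.7%) and with the 6 highest ERCC rows (76.6%). In Dicer-cKO MG 4 were lower (39.3%), 0 with the same total (7.59%), 0 with that total without the row most abundant after LD (7.14%), 1 with the geometric mean of the 100 highest miRNAs (24.6%), 2 with the median of ratios (26.3%), 3 with 10 counts of background added back (31.2%), where miR-195 was lost, and 5 without scaling (75.4%) and with the ERCC rows (83.5%). After LD 2 were lower than in Dicer-cKO MG (miR-16 and miR-322, 30.3%), 1 with Gapdh alone (16%), 1 with B2m alone (23.4%), 0 without scaling (10.9%), 0 with the ERCC rows (6.29%) and 3 with the same total (54.9%), with that total without the most abundant row (41.1%) and with Rpl19 alone (45.1%).

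The ratio of LD to wild type of miR-15a was 0.742 with Rpl19 alone, 0.721 without scaling and 0.636 with the ERCC rows, and that of the summed family was 1.07 with the total without the most abundant row. With the same total and with the total without that row, respectively, the ratio of Dicer-cKO to wild type was 1.53 and 1.58 for miR-15a, 1.07 and 1.10 for miR-15b, 1.85 and 1.90 for miR-16 and 1.77 and 1.82 for the sum. The ratio of LD to Dicer-cKO of miR-16 was 1.33 with Gapdh alone, 1.01 with B2m alone, 1.77 without scaling and 2.21 with the ERCC rows. The miR-16 share of the family in Dicer-cKO MG was 82.3% with 10 counts added back, 89.0% with 10 more subtracted and 88.3% without miR-195 and miR-322. In wild type MG it was 83.5% without these 2. With 10 counts added back the ratio of LD to Dicer-cKO of the summed family was 0.919 (0.849 to 0.996), lower beyond counting error. miR-195 and miR-322 had few counts after LD and in Dicer-cKO MG, and their ratios there moved with both the scaling and the background.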

Other observations

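Rows whose change was most like that of a member were found by the distance in the plane of both log2 changes to wild type (pseudocount 1, 3 samples, 104 miRNAs that averaged at least 100 counts). Nearest to miR-16 was MIMAT0000674, at a distance of 0.112, with 528 normalized counts in wild type, 184 after LD and 250 in Dicer-cKO MG. Nearest to miR-15b was MIMAT0004536, at a distance of 0.0566, with 1262, 378 and 343 normalized counts, respectively. miR-15a had no row closer than 0.276, namely MIMAT0000535, with 8716 normalized counts in wild type, 10969 after LD and 4052 in Dicer-cKO MG. None of these rows has a name in the sources used here. Within the family, miR-16 was the 41st nearest row to miR-15a and miR-15b the 53rd, while miR-15b was the 17th nearest to miR-16. The miR-16 count sums the locus it shares with miR-15a and that shared with miR-15b, so these places do not compare single loci.

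The combination that miR-15a showed in the authors' scaling, higher after LD and lower in Dicer-cKO MG beyond counting error, was found in 8 of the 104 miRNAs (7.69%). Another 56 (53.8%), miR-15b and miR-16 among them, were lower in both.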
